A study of Mus musculus with 10 samples.

Results

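The interferon-stimulated antiviral genes are a set of 40 genes whose transcription is classically switched on by interferon. They were chosen by name with earlier results of these data known, so counts against all genes describe the set and do not test it. Of the 40, 38 had a probe set annotated to that gene alone and were measured here, among 19938 genes in all. Isg15, the ubiquitin-like modifier that many of these genes handle, was read only by a probe set shared with the pseudogene Gm9706, and Ifi44 had no named probe set, so neither was analysed here. Each of the 38 genes had 1 probe set and none was filtered out by level; a filter at the median level of all genes (6.5 on the log2 scale) would have removed 3.

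Cells sense viral RNA or DNA with cytosolic receptors and secrete type I interferon, which binds the receptor IFNAR on the same and on neighbouring cells. The receptor's kinases activate STAT2, which with IRF9 is part of the complex that binds the interferon-stimulated response element (ISRE) in the promoters of these genes. Their products degrade viral RNA, block its translation, hold virions at membranes, or feed back on the pathway. Conventional dendritic cells of type 1 (cDC1s) cross-present antigen to CD8 T cells and respond to type I interferon when they do so.

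RNA from cDC1s sorted from mouse spleen was hybridised to 10 arrays, which fell into 4 genotypes: WT and Zeb2 KO with 3 arrays each, and Nfil3 Zeb2 DKO and Zeb2 Id2 DKO with 2 arrays each. The Zeb2 KO lacks the zinc finger repressor Zeb2, and each double knockout (DKO) lacks in addition either the leucine zipper repressor Nfil3 or Id2, which keeps E proteins from binding DNA; the WT arrays carry none of these losses. The question posed by the design was how the expression programme of cDC1s differs among these genotypes. No treatment is given in the labels. The alleles, any Cre line or inducing agent, the age of the mice, the gate of the sort and whether animals were pooled are not given in the sources used here. The labels do not say that replicates came from separate animals, so p-values reflect only how far these samples vary, which may be technical. Values are log2 of the authors' RMA intensities, a change is a difference of log2 means, and a gene was called at an adjusted p under 0.05 in limma's moderated test over all 19938 genes.

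The promoter sequences below show matches to the letters of the ISRE, in the 4 genes of largest rise that carry such a match upstream of their start. Binding to these matches was not measured. Capitals mark each match to GAAA, any 2 bases and GAAA on either strand, so that TTTC, any 2 bases and TTTC is the same element read from the other strand. Sequences are RefSeq's (GRCm38.p6), printed 5′ to 3′ on the strand of the gene. Ifit3 lies on the plus strand at chr19:34583353-34583436, Ifit1 on the plus strand at chr19:34640765-34640833, Oas3 on the minus strand at chr5:120777705-120777754 and Rsad2 on the minus strand at chr12:26456543-26456592.
Ifit3: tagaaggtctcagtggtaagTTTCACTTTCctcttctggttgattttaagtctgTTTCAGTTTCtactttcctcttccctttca
Ifit1: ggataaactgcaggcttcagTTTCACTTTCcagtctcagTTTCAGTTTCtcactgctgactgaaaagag
Oas3: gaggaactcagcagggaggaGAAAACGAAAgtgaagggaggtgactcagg
Rsad2: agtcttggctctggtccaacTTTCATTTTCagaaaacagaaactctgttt
Ifit3 and Ifit1 each held a pair of matches in reverse orientation, beginning 156 and 122 bases before the start in Ifit3 and 104 and 85 bases before it in Ifit1. In Oas3 a single forward match began 75 bases before the start, and in Rsad2 a reverse match began 120 bases before it.

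The arrays were alike in brightness, with medians between 76.3 and 82.9. Correlations within a genotype ran from 0.994 to 0.997 in WT, were 0.997 in each DKO, and fell to 0.986 in Zeb2 KO, where replicate 3 stood apart. Id2 fell to 5.01 and 4.98 in the Zeb2 Id2 DKO against 10.15, 10.32 and 10.43 in WT, and Nfil3 fell to 6.20 and 7.09 in the Nfil3 Zeb2 DKO against 9.98, 10.77 and 10.68. Zeb2 stood at 6.0, 5.93 and 6.30 in WT, 6.10, 6.27 and 5.40 in Zeb2 KO, 6.46 and 6.24 in Nfil3 Zeb2 DKO, and 6.78 and 6.82 in Zeb2 Id2 DKO; of the 7 arrays labelled as lacking it, only Zeb2 KO replicate 3 lay below the WT arrays. The deleted part of Zeb2 is not given, so this probe set does not check the label, and arrays are called here by their labels. Of 12 cDC1 markers, 0 rose and 1 fell (Cadm1, an adhesion molecule, by 0.87) between Zeb2 Id2 DKO and WT. In limma 5 of the 12 had an unadjusted p under 0.05, as did 10.2% of all genes, and changes ran from -0.87 to 0.56. Cd8a (-0.52), Tlr3 (0.33) and Ly75 (-0.41) had the smallest p values after Cadm1 and did not pass. Xcr1 and Clec9a, the receptors that define cDC1s, stayed between 11.36 and 11.96 in all WT and Zeb2 Id2 DKO arrays.

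The interferon-stimulated genes were higher in Zeb2 Id2 DKO cDC1s than in the other genotypes. Against WT, 15 of the 38 rose and 0 fell, where 0.878% of all genes were called higher and 0.557% lower. The log2 fold changes of all 38 were above 0 and ran from 0.04 to 2.30, with a median of 0.87 (1.82-fold) against a median of -0.01 over all genes. The difference was 2-fold or more in 12 genes, of which Phf11d and Zbp1 did not pass, and 4-fold or more in 2 (Ifit3 and Ifit2), which did. On the arrays themselves, 34 of the 38 were higher in each Zeb2 Id2 DKO array than in every WT array, as were 15.2% of all genes, and 30 of the 38 were higher there than on all 8 other arrays, as were 5.01% of all genes. Without Zeb2 Id2 DKO replicate 2, which leaves a single array of that genotype, fewer genes passed and the median of the 38 dropped to 0.63. Without Zeb2 KO replicate 3 the count of 15 rose to 28, and the number of all genes called higher rose from 175 to 444. Ifit3, Ifit2, Ifit1, Oasl2, Cmpk2, Oas3 and Oasl1 passed whichever array was left out. In bulk RNA, a larger share of cells expressing a gene and more RNA per cell cannot be told apart.

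**Figure D1:**
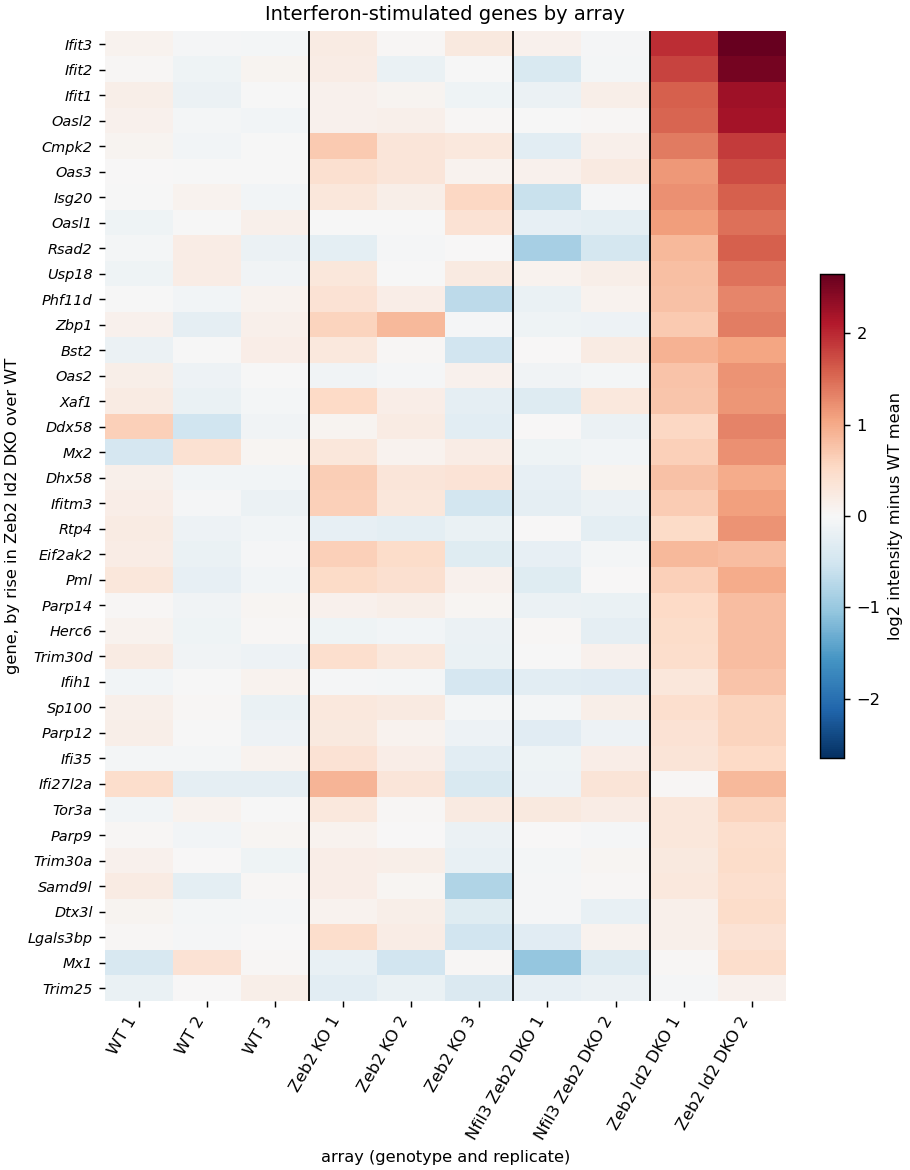
Log2 intensity of each of the 38 genes (rows, ordered by the rise in Zeb2 Id2 DKO over WT) on each of the 10 arrays (columns, grouped by genotype), minus the gene's WT mean, with red for higher and blue for lower. The Zeb2 Id2 DKO columns are red for nearly all genes and deeper in replicate 2, where the median gene lay 1.02 above the WT mean against 0.63 in replicate 1.

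The genes whose products bind or cut foreign RNA or stop its translation held 8 of the 15 calls against WT. Of these 9 effectors, 8 rose against WT, 8 against Zeb2 KO and 8 against Nfil3 Zeb2 DKO, with a median log2 fold change of 1.44 (2.72-fold) against WT. Eif2ak2, the kinase PKR that halts translation, was the exception in each comparison. Without Zeb2 Id2 DKO replicate 2, 4 of the 9 passed against Zeb2 KO.

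The IFIT proteins, which bind viral RNA through tetratricopeptide repeats, led the list. Ifit3 stood at 6.40, 6.29 and 6.25 in WT, 6.52, 6.34 and 6.57 in Zeb2 KO, 6.43 and 6.29 in Nfil3 Zeb2 DKO, and 8.26 and 8.97 in Zeb2 Id2 DKO. The Zeb2 Id2 DKO arrays lay far above all others, a rise of 2.30 on the log2 scale (4.93-fold, 95% interval 1.93 to 2.68, limma adjusted p = 0.000147). The Ifit3 SD was 0.50 in Zeb2 Id2 DKO (n = 2) and 0.07 in WT (n = 3), whereas this interval pools the spread over genotypes. A near-identical neighbour, Ifit3b, exists in the mouse, and signal of the pair may be shared. Ifit2 stood at 7.25, 7.10 and 7.29 in WT, 7.42, 7.04 and 7.20 in Zeb2 KO, 6.80 and 7.16 in Nfil3 Zeb2 DKO, and 9.0 and 9.76 in Zeb2 Id2 DKO. Again the groups did not overlap, and Ifit2 rose by 2.16 over WT (4.48-fold, 95% interval 1.72 to 2.61, adjusted p = 0.000558). Ifit1, which recognises viral RNA caps, stood at 5.44, 5.13 and 5.28 in WT, 5.41, 5.35 and 5.18 in Zeb2 KO, 5.13 and 5.45 in Nfil3 Zeb2 DKO, and 6.87 and 7.53 in Zeb2 Id2 DKO. It rose by 1.92 (3.77-fold, 95% interval 1.52 to 2.32, adjusted p = 0.000618), with no overlap between Zeb2 Id2 DKO and any other array.

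The oligoadenylate synthetase family, whose enzymes make the second messenger that activates RNase L, rose as well. Oasl2, a synthetase-like protein, rose by 1.87 over WT (adjusted p = 0.000299), Oas3 by 1.44 (adjusted p = 0.00157), Oasl1, which dampens Irf7 translation, by 1.29 (adjusted p = 0.0018) and Oas2 by 0.97 (adjusted p = 0.00581). Isg20, an RNA exonuclease, rose by 1.40 (adjusted p = 0.0035). The calls of Oas2 and Isg20 ended without Zeb2 Id2 DKO replicate 2 (adjusted p = 0.065 and 0.0632). The Eif2ak2 difference was 0.84 (95% interval 0.33 to 1.35, adjusted p = 0.136), with a spread among the Zeb2 KO arrays of 0.51 (SD, n = 3).

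Of the 5 sensors of foreign nucleic acid and their partners, 1 rose against WT, 1 against Nfil3 Zeb2 DKO and 0 in limma against Zeb2 KO, where 4 had an unadjusted p under 0.05, and the median log2 fold change against WT was 0.88. The gene that rose was Dhx58 (LGP2), an RNA helicase that tunes the signalling of its relatives. Dhx58 stood at 8.25, 8.05 and 8.06 in WT, 8.76, 8.45 and 8.48 in Zeb2 KO, 7.90 and 8.19 in Nfil3 Zeb2 DKO, and 8.89 and 9.11 in Zeb2 Id2 DKO. The Zeb2 KO arrays thus lay between WT and Zeb2 Id2 DKO without overlap, and the rise over WT was 0.88 (95% interval 0.59 to 1.17, adjusted p = 0.00904), lost without Zeb2 Id2 DKO replicate 2 (adjusted p = 0.137).

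Zbp1, a sensor of Z-form nucleic acid that can start necroptosis, stood at 8.44, 8.09 and 8.45 in WT, 8.92, 9.18 and 8.31 in Zeb2 KO, 8.21 and 8.19 in Nfil3 Zeb2 DKO, and 9.02 and 9.68 in Zeb2 Id2 DKO. Zeb2 KO replicate 2 reached above the lower Zeb2 Id2 DKO array, and the difference of 1.02 over WT did not pass (95% interval 0.47 to 1.57, adjusted p = 0.0843). Ddx58 (RIG-I), a receptor for viral RNA ends, stood at 7.24, 6.09 and 6.51 in WT, 6.68, 6.84 and 6.33 in Zeb2 KO, 6.62 and 6.46 in Nfil3 Zeb2 DKO, and 7.15 and 7.93 in Zeb2 Id2 DKO. WT replicate 1 lay above the lower Zeb2 Id2 DKO array, and the difference of 0.93 did not pass (95% interval 0.25 to 1.61, adjusted p = 0.251). Ifih1 (MDA5), a receptor for long double-stranded RNA, differed by 0.54 (adjusted p = 0.16). Trim25, a ubiquitin ligase for RIG-I, is described with the genes at the foot of the order.

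Of 6 measured genes of the ISG15 and ADP-ribosylation pathways, 3 rose against each of the other genotypes, and the median log2 fold change against WT was 0.57. Usp18, the protease that removes ISG15 and restrains the interferon receptor, stood at 8.53, 8.84 and 8.56 in WT, 8.94, 8.64 and 8.88 in Zeb2 KO, 8.74 and 8.80 in Nfil3 Zeb2 DKO, and 9.45 and 10.09 in Zeb2 Id2 DKO. It rose by 1.13 (95% interval 0.74 to 1.51, adjusted p = 0.0113) with no overlap. Parp14, an ADP-ribosyltransferase, stood at 8.20, 8.07 and 8.22 in WT, 8.28, 8.33 and 8.21 in Zeb2 KO, 8.02 and 7.99 in Nfil3 Zeb2 DKO, and 8.70 and 8.98 in Zeb2 Id2 DKO. Its arrays agreed closely outside the Zeb2 Id2 DKO, and a rise of 0.68 was called (95% interval 0.46 to 0.89, adjusted p = 0.00794). Herc6, the mouse ligase that attaches ISG15, stood at 8.63, 8.42 and 8.58 in WT, 8.43, 8.48 and 8.38 in Zeb2 KO, 8.57 and 8.31 in Nfil3 Zeb2 DKO, and 9.02 and 9.36 in Zeb2 Id2 DKO, a rise of 0.65 (95% interval 0.38 to 0.91, adjusted p = 0.0275). All 3 calls against WT ended without Zeb2 Id2 DKO replicate 2, those of Usp18 and Herc6 also without WT replicate 3, and that of Herc6 without WT replicate 2. Against Zeb2 KO the count of 3 fell to 0 or 1 without any of 8 single arrays. Against Nfil3 Zeb2 DKO it was 0 without replicate 2 of Zeb2 Id2 DKO and without either of the Nfil3 Zeb2 DKO arrays, 1 without WT replicate 3 and 5 without Zeb2 KO replicate 3. Parp12, Parp9 and Dtx3l, relatives and a partner of Parp14, differed by 0.49, 0.38 and 0.31 and did not pass.

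Among 5 genes of the Mx GTPases and of nucleotide metabolism, 2 rose against each genotype, with a median log2 fold change of 0.92 against WT. Cmpk2, a mitochondrial nucleotide kinase, stood at 6.38, 6.22 and 6.28 in WT, 6.99, 6.62 and 6.58 in Zeb2 KO, 6.01 and 6.42 in Nfil3 Zeb2 DKO, and 7.67 and 8.14 in Zeb2 Id2 DKO. The Zeb2 KO arrays lay above WT and well below Zeb2 Id2 DKO, where the rise over WT was 1.61 (3.05-fold, 95% interval 1.23 to 1.99, adjusted p = 0.00157). Its neighbour Rsad2 (viperin), which makes a chain-terminating nucleotide, stood at 8.13, 8.37 and 8.02 in WT, 7.91, 8.15 and 8.17 in Zeb2 KO, 7.30 and 7.71 in Nfil3 Zeb2 DKO, and 9.03 and 9.76 in Zeb2 Id2 DKO. Rsad2 was lowest in the Nfil3 Zeb2 DKO and rose by 1.22 over WT in Zeb2 Id2 DKO (95% interval 0.77 to 1.67, adjusted p = 0.0157), a call lost when WT replicate 3 (adjusted p = 0.0752) or replicate 2 of Zeb2 Id2 DKO (0.155) was left out. The count of 2 against Zeb2 KO was 0 without Zeb2 Id2 DKO replicate 2 or Zeb2 KO replicate 2 and 1 without Zeb2 KO replicate 1, and against Nfil3 Zeb2 DKO it was 0 without Nfil3 Zeb2 DKO replicate 1.

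Mx2 and Mx1, dynamin-like GTPases that block viral replication, did not pass in any comparison. RefSeq lists Mx1 and Mx2 as pseudogenes in the reference strain. Mx2 stood at 5.91, 6.77 and 6.41 in WT, 6.66, 6.46 and 6.55 in Zeb2 KO, 6.24 and 6.29 in Nfil3 Zeb2 DKO, and 7.0 and 7.57 in Zeb2 Id2 DKO. The difference of 0.92 did not pass (95% interval 0.43 to 1.41, adjusted p = 0.0837), and the WT arrays varied by 0.43 (SD, n = 3). Samd9l, a translation inhibitor, differed by 0.36.

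Of 5 membrane and secreted proteins, 1 rose against WT, 2 against Zeb2 KO and 0 in limma against Nfil3 Zeb2 DKO, where 3 had an unadjusted p under 0.05, and the median log2 fold change against WT was 0.85. Bst2 (tetherin), which holds budding virions at the cell surface, stood at 10.45, 10.61 and 10.78 in WT, 10.90, 10.65 and 10.12 in Zeb2 KO, 10.62 and 10.83 in Nfil3 Zeb2 DKO, and 11.54 and 11.66 in Zeb2 Id2 DKO. It rose by 0.98 over WT (95% interval 0.56 to 1.41, adjusted p = 0.034), though the call ended when any of 7 single arrays was left out, and that against Zeb2 KO (adjusted p = 0.0488) when any of 8 was. Ifitm3, which blocks fusion in endosomes, stood at 11.01, 10.79 and 10.68 in WT, 11.46, 11.12 and 10.33 in Zeb2 KO, 10.59 and 10.67 in Nfil3 Zeb2 DKO, and 11.50 and 11.92 in Zeb2 Id2 DKO. The highest Zeb2 KO array nearly reached Zeb2 Id2 DKO, and the difference of 0.88 over WT did not pass (95% interval 0.30 to 1.47, adjusted p = 0.185).

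Rtp4, a Golgi chaperone that restricts flaviviruses, stood at 6.40, 6.03 and 6.09 in WT, 5.96, 5.92 and 5.99 in Zeb2 KO, 6.19 and 5.91 in Nfil3 Zeb2 DKO, and 6.68 and 7.36 in Zeb2 Id2 DKO. It rose by 1.07 against Zeb2 KO (adjusted p = 0.0318) and missed the threshold against WT at 0.85 (95% interval 0.45 to 1.25, adjusted p = 0.051). The call against Zeb2 KO ended when any of 7 single arrays was left out. Tor3a, an ATPase of the endoplasmic reticulum, differed from WT by 0.44 (adjusted p = 0.103).

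None of the 3 nuclear proteins passed in limma, though each had an unadjusted p under 0.05 against WT and the median log2 fold change was 0.81. Phf11d, a PHD finger protein, stood at 7.86, 7.81 and 7.96 in WT, 8.25, 8.05 and 7.19 in Zeb2 KO, 7.70 and 7.96 in Nfil3 Zeb2 DKO, and 8.65 and 9.18 in Zeb2 Id2 DKO. Zeb2 KO replicate 3 lay far below its group, and the difference of 1.03 over WT had an adjusted p of 0.103. Pml, which builds nuclear bodies, stood at 9.70, 9.19 and 9.33 in WT, 9.91, 9.83 and 9.53 in Zeb2 KO, 9.09 and 9.41 in Nfil3 Zeb2 DKO, and 10.03 and 10.40 in Zeb2 Id2 DKO (difference 0.81, adjusted p = 0.0621). Sp100, another component of these bodies, stood at 11.02, 10.91 and 10.70 in WT, 11.16, 11.13 and 10.83 in Zeb2 KO, 10.83 and 11.03 in Nfil3 Zeb2 DKO, and 11.32 and 11.47 in Zeb2 Id2 DKO (difference 0.52, adjusted p = 0.0958). In all 3 genes the Zeb2 Id2 DKO arrays lay above the other 8, and all 3 passed against WT when Zeb2 KO replicate 3 was left out.

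Of the 5 remaining genes measured, 0 passed in limma against any genotype, while 4 had an unadjusted p under 0.05 against WT. Xaf1, which promotes apoptosis, stood at 6.80, 6.42 and 6.54 in WT, 7.12, 6.76 and 6.35 in Zeb2 KO, 6.23 and 6.86 in Nfil3 Zeb2 DKO, and 7.33 and 7.75 in Zeb2 Id2 DKO (difference 0.95, 95% interval 0.42 to 1.48, adjusted p = 0.0959). Trim30d, of a mouse family of TRIM proteins, stood at 9.82, 9.50 and 9.47 in WT, 10.04, 9.88 and 9.43 in Zeb2 KO, 9.58 and 9.71 in Nfil3 Zeb2 DKO, and 10.06 and 10.41 in Zeb2 Id2 DKO (difference 0.64, adjusted p = 0.158). Ifi35, a leucine zipper protein, stood at 9.67, 9.67 and 9.82 in WT, 10.11, 9.89 and 9.43 in Zeb2 KO, 9.61 and 9.89 in Nfil3 Zeb2 DKO, and 10.07 and 10.26 in Zeb2 Id2 DKO (difference 0.44, adjusted p = 0.371). Xaf1 and Trim30d did not overlap between Zeb2 Id2 DKO and the other arrays, whereas Ifi35 did. Trim30a, whose probes may share signal with its copies, and Ifi27l2a, a mitochondrial protein, differed by 0.37 and 0.44. With Zeb2 KO replicate 3 left out, 2 of the 5 passed against WT.

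The 4 genes at the foot of the order had the smallest differences from WT. Dtx3l, a ubiquitin ligase that pairs with Parp9, stood at 9.29, 9.15 and 9.19 in WT, 9.31, 9.37 and 8.88 in Zeb2 KO, 9.18 and 9.01 in Nfil3 Zeb2 DKO, and 9.35 and 9.69 in Zeb2 Id2 DKO (difference 0.31, 95% interval -0.02 to 0.64). Lgals3bp, a secreted glycoprotein, stood at 9.75, 9.71 and 9.73 in WT, 10.20, 9.92 and 9.23 in Zeb2 KO, 9.44 and 9.83 in Nfil3 Zeb2 DKO, and 9.86 and 10.10 in Zeb2 Id2 DKO (difference 0.26, 95% interval -0.26 to 0.77). Each overlapped with arrays of other genotypes. Mx1 stood at 8.15, 8.95 and 8.61 in WT, 8.37, 8.06 and 8.61 in Zeb2 KO, 7.55 and 8.22 in Nfil3 Zeb2 DKO, and 8.60 and 9.04 in Zeb2 Id2 DKO (difference 0.25, 95% interval -0.32 to 0.83). Trim25 stood at 9.61, 9.79 and 9.92 in WT, 9.50, 9.59 and 9.39 in Zeb2 KO, 9.55 and 9.62 in Nfil3 Zeb2 DKO, and 9.74 and 9.88 in Zeb2 Id2 DKO (difference 0.04, 95% interval -0.20 to 0.28). The Trim25 difference turned to -0.004 under quantile normalization. The adjusted p of the 4 ran from 0.543 to 0.979.

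**Figure D2:**
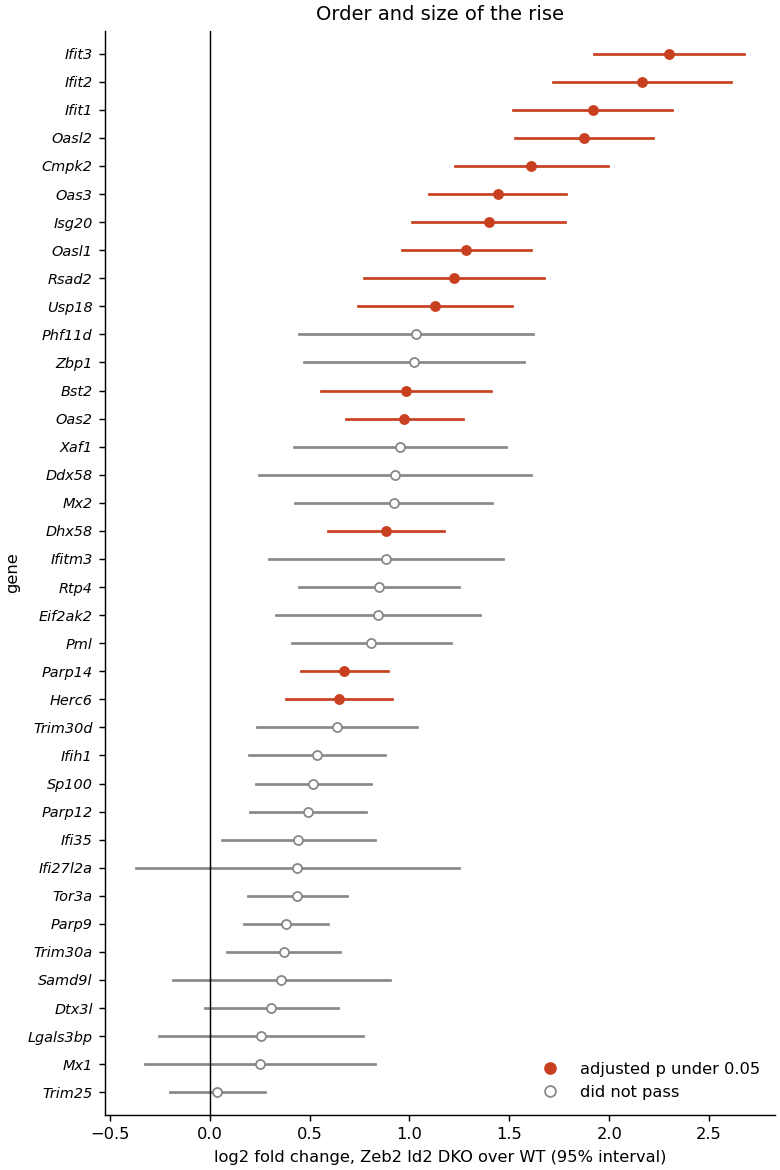
Log2 fold change of Zeb2 Id2 DKO over WT for each of the 38 genes in order of size, with 95% intervals; filled points passed an adjusted p under 0.05 and open points did not. The intervals of 33 genes lie wholly below that of Ifit3, and those of 6 genes include 0.

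**Figure D3:**
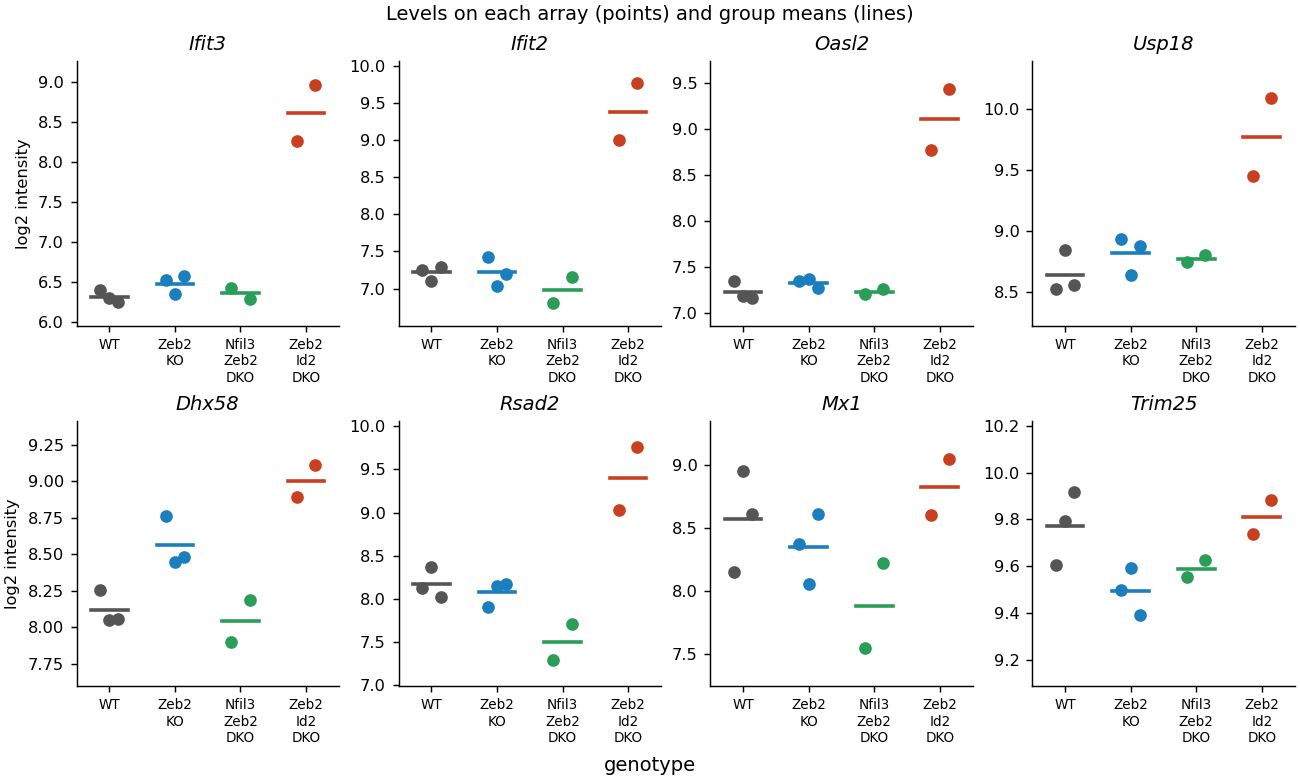
Log2 intensity on each array (points) with group means (lines) for 8 of the genes across the 4 genotypes, each panel on its own scale. Ifit3, Ifit2 and Oasl2 separate the Zeb2 Id2 DKO from all other arrays, Dhx58 is intermediate in Zeb2 KO, and Trim25 overlaps between WT and Zeb2 Id2 DKO.

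The order of the rise was led by the same 5 genes on each Zeb2 Id2 DKO array: Ifit3, Ifit2, Ifit1, Oasl2 and Cmpk2. Ifit3 stood 1.95 above the WT mean on replicate 1 and 2.65 on replicate 2, and Cmpk2 stood 1.37 and 1.85 above it. Further down the order was looser: Bst2 ranked 9 on replicate 1 and 19 on replicate 2, and Eif2ak2 ranked 10 and 23. Neighbours in the order mostly did not differ beyond their intervals, since the median interval reached 0.38 to either side, against 0.24 over all genes. Values were higher on replicate 2. In 37 of the 38 genes the value was higher on replicate 2 than on replicate 1, by a median of 0.40 and at most 0.82 (Ifi27l2a), while over all genes the median difference was -0.01 and 45.7% were higher on replicate 2. Eif2ak2 was the exception, at -0.04. The same array was the higher for neutrophil markers, whose mean lay 1.11 above WT on replicate 1 and 2.19 above it on replicate 2; their part in this difference was not tested. Within genotype, the median SD of the 38 genes was 0.28 in Zeb2 Id2 DKO against 0.0639 over all genes, and 0.14 in WT against 0.0881. The limma test pools the spread of a gene over the genotypes. Its intervals and p-values for the raised genes may therefore understate the uncertainty in Zeb2 Id2 DKO.

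**Figure D4:**
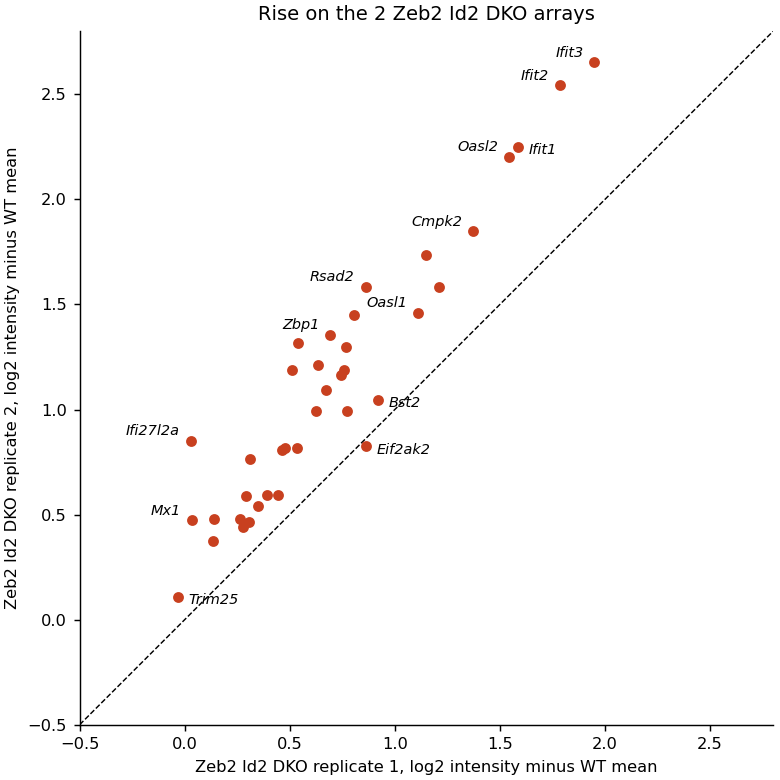
Log2 intensity minus the WT mean on Zeb2 Id2 DKO replicate 1 (horizontal) and replicate 2 (vertical) for the 38 genes, with a dashed line of equality and selected genes named. All genes but Eif2ak2 lie above the line, so the value is higher on replicate 2, and the 5 largest rises keep their order.

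The comparisons with the other 2 mutant genotypes share the Zeb2 Id2 DKO arrays with the comparison against WT, so their values stand side by side with it. Against Zeb2 KO, which shares the loss of Zeb2, 15 of the 38 rose (0.366% of all genes were called higher) and 0 fell (0.13% lower), with a median of 0.72 and a range of 0.17 to 2.16. Against Nfil3 Zeb2 DKO, 14 rose (0.582% of all genes higher) and 0 fell (0.211% lower), with a median of 0.97 and a range of 0.22 to 2.40. Ifit2 rose by 2.16 against Zeb2 KO and by 2.40 against Nfil3 Zeb2 DKO, Ifit3 by 2.14 and 2.26, and Oasl2 by 1.78 and 1.87. Rsad2 rose by 1.32 against Zeb2 KO and by 1.89 against Nfil3 Zeb2 DKO, where it was lowest. Dhx58 rose by 0.96 against Nfil3 Zeb2 DKO (adjusted p = 0.0125), a call that ended without Nfil3 Zeb2 DKO replicate 1 or either Zeb2 Id2 DKO array (highest adjusted p = 0.177). It differed by 0.44 from Zeb2 KO without passing (95% interval 0.15 to 0.73, adjusted p = 0.311), and Bst2 missed the threshold against Nfil3 Zeb2 DKO (0.87, adjusted p = 0.0967).

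The counts against Zeb2 KO moved with single arrays: 9 without WT replicate 3, 9 without Zeb2 KO replicate 1 and 7 without Zeb2 KO replicate 2. Fewer passed without replicate 2 of Zeb2 Id2 DKO, which leaves a single array of that genotype. Calls over all genes fell in that fit as well. Against Nfil3 Zeb2 DKO the count was 26 without Zeb2 KO replicate 3. It was lower without Nfil3 Zeb2 DKO replicate 1 or Zeb2 Id2 DKO replicate 2, each of which leaves a single array in a group. Calls over all genes fell in those fits as well. With only the 2 groups compared in the fit, 4 passed against Zeb2 KO and 27 against Nfil3 Zeb2 DKO. Over all genes, 16 and 523 were called higher in these fits, against 73 and 116 with all arrays. The number of all genes higher against Zeb2 KO was 50 without WT replicate 3. It was 77 without Zeb2 KO replicate 1 and 37 without Zeb2 KO replicate 2. Against Nfil3 Zeb2 DKO, 469 of all genes were higher without Zeb2 KO replicate 3. Ifit3, Ifit2, Ifit1 and Oasl2 passed against each of these genotypes whichever array was left out.

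Among the genotypes that keep Id2, no member passed in any of the 3 comparisons. Between Zeb2 KO and WT, limma called 0 of the 38 (0.00502% of all genes higher, 0.015% lower), with 3 of 38 and 7.39% of all genes at an unadjusted p under 0.05, and the median log2 fold change was 0.10. Without Zeb2 KO replicate 3, 1 gene passed, Eif2ak2 (0.56, adjusted p = 0.0427), and the number of all genes called higher rose from 1 to 77. Every Zeb2 KO array lay above every WT array for Oas3, Isg20, Dhx58 and Cmpk2, as for 5.37% of all genes, and below it for Trim25 and Rtp4, as for 5.03%. These 6 genes were picked out after their values were seen. The Zeb2 KO arrays also differed among themselves: the median gene of the 38 lay 0.27, 0.14 and -0.12 from the WT mean on replicates 1, 2 and 3.

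Between Nfil3 Zeb2 DKO and WT, 0 of the 38 passed (0% of all genes higher, 0.00502% lower), with 2 of 38 and 4.16% of all genes at an unadjusted p under 0.05 and a median of -0.08. Both Nfil3 Zeb2 DKO arrays lay below every WT array for Oasl1, Ifih1, Parp14, Rsad2 and Ifitm3, as for 10.7% of all genes, and above it for Oas3 and Tor3a, as for 13.1%. Between Nfil3 Zeb2 DKO and Zeb2 KO, 0 of the 38 passed (0% higher, 0.00502% lower), with 9 of 38 and 8.5% of all genes at an unadjusted p under 0.05 and a median of -0.12.

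**Figure D5:**
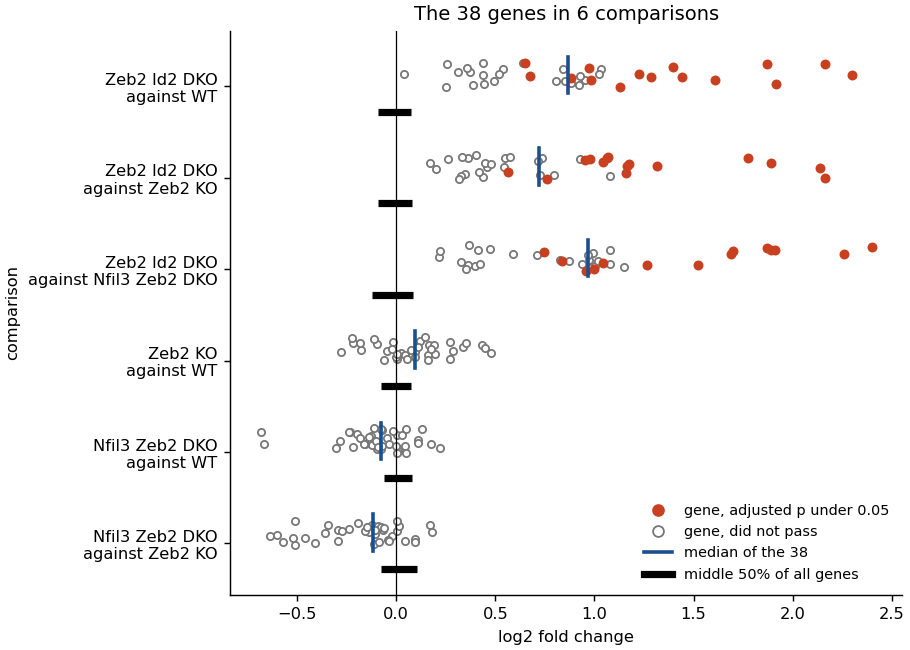
Log2 fold changes of the 38 genes (points) in the 6 comparisons, with their median (blue line) and the middle 50% of all genes (black bar); red points passed an adjusted p under 0.05. The medians are 0.87, 0.72 and 0.97 in the 3 comparisons of Zeb2 Id2 DKO, and lie between -0.12 and 0.10 in the other 3.

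Genes upstream of the response were measured as fixed lists. Of 17 interferon genes listed, 14 were measured, while Ifna1, Ifna6 and Ifnl3 were read only by probe sets of several genes. Of the 14, limma called 0 in any comparison of Zeb2 Id2 DKO. An unadjusted p under 0.05 was seen for 1 against WT, 2 against Zeb2 KO and 2 against Nfil3 Zeb2 DKO. Over all genes the shares were 10.2%, 7.35% and 11.5%. Against WT the median was -0.05, and the smallest p values were those of Ifng (-0.31, adjusted p = 0.379) and Ifna12 (-0.25, adjusted p = 0.606). Summed over the list, intensity was 974 to 1038 in WT and 919 to 962 in Zeb2 Id2 DKO. The average gene of the list was thus dimmer than the median probe set of an array (76.3 to 82.9). At such levels a change in message may not be seen. The interferon messages of other cells in the spleen were not measured.

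Of 12 receptor, kinase and STAT genes measured, 1 rose. Stat2, the partner of IRF9, stood at 9.85, 9.75 and 9.91 in WT, 10.32, 10.23 and 9.95 in Zeb2 KO, 9.86 and 9.82 in Nfil3 Zeb2 DKO, and 10.80 and 10.82 in Zeb2 Id2 DKO. The Zeb2 Id2 DKO arrays agreed closely and lay above all others, and Stat2 rose by 0.97 over WT (95% interval 0.73 to 1.21, adjusted p = 0.0018), 0.64 over Zeb2 KO (adjusted p = 0.0326) and 0.97 over Nfil3 Zeb2 DKO (adjusted p = 0.00507). The call against WT held whichever array was left out, whereas that against Zeb2 KO ended with any of 8 single arrays left out (highest adjusted p = 0.3) and that against Nfil3 Zeb2 DKO also depended on single arrays (highest adjusted p = 0.0702). Irf9 differed from WT by 0.29 and did not pass (95% interval 0.11 to 0.47, adjusted p = 0.151).

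Among 12 interferon regulatory factors and sensor adaptors, 1 rose against WT. Irf7, the factor that amplifies type I interferon production and is itself interferon-stimulated, stood at 10.33, 10.10 and 10.26 in WT, 11.00, 10.83 and 10.07 in Zeb2 KO, 10.12 and 10.38 in Nfil3 Zeb2 DKO, and 11.36 and 11.77 in Zeb2 Id2 DKO. It rose by 1.33 over WT (95% interval 0.81 to 1.85, adjusted p = 0.0212) and by 1.32 over Nfil3 Zeb2 DKO (adjusted p = 0.048), and differed from Zeb2 KO by 0.93 without passing (adjusted p = 0.178). The call against WT ended without WT replicate 2 or 3 and without each of the Zeb2 Id2 DKO arrays (highest adjusted p = 0.246), and that against Nfil3 Zeb2 DKO without any of 8 single arrays (highest adjusted p = 0.397). Of 6 interferon-inducible GTPases measured, Irgm1, which acts in autophagy, rose by 0.84 over WT (adjusted p = 0.037) and by 0.96 over Nfil3 Zeb2 DKO (adjusted p = 0.0446), and these calls ended when any of 8 and any of 7 single arrays was left out. Of 10 genes of antigen processing that interferon induces, limma called 0 in the comparisons of Zeb2 Id2 DKO. An unadjusted p under 0.05 was seen for 0 against WT, 0 against Zeb2 KO and 1 against Nfil3 Zeb2 DKO. Against WT the median was 0.03, and the smallest p values were those of Tap1 (0.13, adjusted p = 0.741) and Tapbp (0.07, adjusted p = 0.934).

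Promoter windows from 250 bases before to 50 after the start were found for 27 of the 38 genes. The ISRE letters (GAAA, any 2 bases, GAAA) occurred, on either strand, in 11 of the 27 (40.7%) and in 3.99% of 27025 genes with a window. The median log2 fold change against WT was 0.93 (0.37 to 2.30) in the 11 genes with an ISRE match, of which 5 were called, and 0.73 (0.04 to 2.16) in the 16 without, of which 6 were called. Ifit2, Oasl2 and Cmpk2 rose by 2.16, 1.87 and 1.61 with no such letters in their windows. By gene order along the chromosomes, 16 of the 38 lie in 7 groups of near neighbours: Ifit2, Ifit3 and Ifit1 on chromosome 19, Oasl2 with Oasl1 and Oas2 with Oas3 on chromosome 5, and Rsad2 with Cmpk2 on chromosome 12 all held called genes. Parp14, Dtx3l and Parp9 are adjacent on chromosome 16, where 1 of 3 was called, as are Trim30a and Trim30d (0 of 2) on chromosome 7, and Mx1 and Mx2 (0 of 2) on chromosome 16 have 1 other coding gene between them.

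Markers of other cell types moved with genotype. Of 14 neutrophil genes, 7 rose in Zeb2 Id2 DKO over WT (median 1.97); Ngp, S100a8 and Ltf, granule and alarmin proteins, differed by 2.95, 2.95 and 2.66. The count of 7 was 1 without Zeb2 Id2 DKO replicate 2, 3 without WT replicate 1 and 2 without WT replicate 2 or 3. The list's summed intensity ranged from 1579 to 1981 over the WT arrays, from 7276 to 16586 over Zeb2 KO and from 2901 to 4705 over Nfil3 Zeb2 DKO, and it was 5859 on Zeb2 Id2 DKO replicate 1 and 15936 on replicate 2. Of 8 erythroid genes measured, 2 rose over WT, Car2 by 1.06 and Hemgn by 0.90 (median 0.87, with Rhag at 1.55 and Slc4a1 at 1.36 not passing). The count was 0 without either Zeb2 Id2 DKO array and 1 without WT replicate 2. The summed intensity ranged from 845 to 1556 over the WT arrays, from 1553 to 1999 over Zeb2 KO, from 629 to 1281 over Nfil3 Zeb2 DKO, and from 2337 to 2854 over Zeb2 Id2 DKO. Of 6 T cell genes measured, 3 fell (median -0.53): Cd3g by 0.99, Cd3d by 0.87 and Lat by 0.62. None of these 3 calls held without Zeb2 Id2 DKO replicate 1.

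Plasmacytoid dendritic cells, known for secreting type I interferon, are marked by a list of which 9 genes were measured. Of these 3 rose over WT (Siglech, Cd300c and Upb1) and 2 over Zeb2 KO (Siglech and Cd300c), and of the calls against WT that of Siglech alone held whichever array was left out. The list had a summed intensity from 1863 to 2094 over the WT arrays, from 1487 to 1671 over Zeb2 KO, from 1757 to 1791 over Nfil3 Zeb2 DKO, and from 2432 to 2860 over Zeb2 Id2 DKO. Siglech, a lectin of these cells, stood at 5.97, 6.56 and 6.42 in WT and 8.07 and 7.90 in Zeb2 Id2 DKO. The defining factor Tcf4 was 8.52 to 8.76 in WT and 8.69 and 8.59 in Zeb2 Id2 DKO. Over the 9 genes the median log2 fold change against WT was 0.30 (-0.17 to 1.67), with 6 above 0 and 3 below. Against Nfil3 Zeb2 DKO 3 of the 9 rose, and that count depended on single arrays. Of 7 monocyte genes measured, 1 rose over WT (Ms4a6c), a call that ended when any of 8 single arrays was left out (highest adjusted p = 0.302), with a summed intensity of 1936 to 2158 in WT and 2776 to 3094 in Zeb2 Id2 DKO. Of 11 red pulp macrophage genes, 2 fell against WT, Hpgd by 1.61 and Vcam1 by 1.06 (list median -0.11). Of 8 NK cell genes, 1 fell, Il2rb by 0.96 (list median -0.28). Each of these falls depended on single arrays. The part of these cell types in the rise of the interferon-stimulated genes was not tested.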

How the data were processed

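RNA from sorted splenic cDC1s of 4 genotypes was hybridised to 10 arrays. The authors ran RMA in Affymetrix Expression Console, per the submitters' processing notes; the version and annotation are not given in the sources used here. The deposited values are linear intensities from 5.05 to 16019, of which log2 was taken. Of 28853 probe sets, 21789 named 1 gene, 1621 several and 5443 none; of several probe sets of a gene the brightest was used. GRCm38.p6 tables served for names, gene order and promoter windows.

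Genotype means were estimated from all 10 arrays together with limma 3.58.1 in R 4.3.3 (6 residual degrees of freedom), without filter or covariate, and p-values were adjusted by Benjamini-Hochberg over 19938 genes in each of 6 comparisons. The test was checked on simulated data. Alternatives covered probe set choice, a filter on dim genes, quantile normalization, log2(value + 16), the 2 groups alone, trended robust moderation, a replicate block and each array left out. The number of arrays limits the precision.

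The members, lists and role groups were chosen with earlier results of these data known. Array values were named for the 3 largest rises over WT per role group and the 4 smallest of all members. Pathway genes were named for passing (or the 2 smallest p), with Stat2, Irf9 and Irf7 always. Cell type genes were named for the 3 largest changes in lists whose median moved by over 0.5. Plasmacytoid dendritic cell, monocyte, red pulp macrophage, NK cell and cDC1 values were added after they were seen. Promoter stretches are those of the 4 largest rises with an upstream match. A result on 1 further item of the pathway is not reported here.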

Additional observations from a re-analysis of the deposited data

How the results depend on the processing

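In the comparison of Zeb2 Id2 DKO with WT, the count of 15 higher genes ranged from 7 to 28 and the median from 0.63 to 1.02 when single arrays were left out. Against Zeb2 KO the count ranged from 4 to 15 and the median from 0.51 to 0.94, and against Nfil3 Zeb2 DKO from 6 to 26 and from 0.72 to 1.16. Between Zeb2 KO and WT the count ranged from 0 to 1. The numbers of all genes called in these comparisons moved with single arrays as well. With only the groups compared in the fit, 4 genes were higher against Zeb2 KO and 27 against Nfil3 Zeb2 DKO. Against WT, 7 further genes passed. Over all genes, 16, 523 and 310 were called higher in these fits, against 73, 116 and 175 with all arrays. With replicate number as a block, 9 were higher against Zeb2 KO, 13 against WT and 13 against Nfil3 Zeb2 DKO. Over all genes, 51, 109 and 127 were called higher with the block, against 73, 175 and 116 without it. Of 13 same-numbered pairs of arrays, only 1 deviated together with a correlation over 0.1 (range -0.312 to 0.162). With 2 arrays in a group the deviations mirror each other, so the 13 pairs are not independent. They cannot decide whether the replicate numbers pair the arrays. Single genes changed sign in 8 cases: Trim25 against WT under quantile normalization (-0.004) and with single arrays left out (-0.045 to 0.111), Ifi27l2a against Zeb2 KO with the replicate block (-0.058) and with single arrays left out (-0.242 to 0.581), Ifi27l2a against Nfil3 Zeb2 DKO (-0.083 to 0.74) and Lgals3bp against Zeb2 KO (-0.076 to 0.409) with single arrays left out. For single genes in the comparisons of Zeb2 Id2 DKO, 1743 values kept direction and side of the threshold, 122 no longer passed it and 56 passed newly. The 1743 include values of genes that did not pass as reported, whereas all 122 losses fall on called genes. Fits with an array left out have fewer samples, and without Zeb2 KO replicate 3 the counts against WT and Nfil3 Zeb2 DKO rose. The cause of these changes was not tested. Groups of 2 arrays limit what the smaller differences can show.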
